A study of Mus musculus with 6 samples.

Results

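The 10 genes described here set the pace of the G1 phase of the cell cycle, and were followed in mammary tumor cells with and without RANK, the receptor activator of NF-kB that is encoded by Tnfrsf11a. They were the D cyclins Ccnd1, Ccnd2 and Ccnd3, the Cdk inhibitors Cdkn1a, Cdkn1b, Cdkn2a, Cdkn2b and Cdkn2c, and the Myc genes Myc and Mycn. Members were the gene probes whose accession maps to one of these symbols, and all 10 genes were found, on 14 of the 55681 gene probes of the array. In all, 9 members, and 22502 genes or unnamed transcripts of the whole array, had enough signal to be tested. The cells were MMTV-PyMT late carcinoma cells, which carry the polyomavirus middle T oncogene under the MMTV promoter, active mainly in mammary epithelium. Both genotypes carried that transgene on a C57BL/6 background, and both were grown orthotopically in syngeneic C57BL/6 mice, so the genotype labels refer to the transplanted cells and not to the cells of the host. Grown tumors were disaggregated and live cells without the leukocyte protein CD45 were sorted. RNA of 3 RANK-/- and 3 RANK+/+ samples was hybridized as 3 pairs on 2-color arrays, with 2 technical arrays, A and B, for each pair. The hosts were young adult females per the study's methods. Whether each RNA came from a tumor of its own was not given in the sources used here, so the spread between pairs may be in part technical. The sort does not separate tumor cells from host cells without CD45, and in such RNA fewer cells of a type and less RNA per cell cannot be told apart.

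D cyclins bind Cdk4 and Cdk6 and start the phosphorylation of the retinoblastoma protein, which releases E2F factors and lets cells enter S phase. Inhibitors of the Ink4 family (Cdkn2a, Cdkn2b, Cdkn2c) bind Cdk4 and Cdk6, whereas those of the Cip/Kip family (Cdkn1a, Cdkn1b) act mainly on Cdk2 complexes. Myc, with its partner Max, activates genes of growth and ribosome production. In the mammary gland, RANK signaling through IKK-alpha and NF-kB is known to drive cyclin D1 and the growth of alveoli in pregnancy.

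The label check went against the labels. The 3 pairs all gave more Tnfrsf11a signal for the RNA labeled RANK-/-, with log2 ratios of 2.03, 1.15 and 1.76 and a mean of 1.65 ± 0.45 (SD, n = 3). The deleted part of the gene is not given in the sources used here, and a probe outside it checks nothing. An exchange of the labels was not tested. Every direction below is therefore that of the channel labeled RANK-/- over the channel labeled RANK+/+. The sample titles name no dye, and the genotype named first in a title was taken as Cy5. A reversed reading would turn every direction below. By the reading used, the RNA labeled RANK-/- was Cy5 in pair 1 but Cy3 otherwise. Pair 1 and its dye arrangement therefore cannot be told apart. On the 6 arrays 51.9 to 58.8% of gene probes were well above background. Correlations of the log2 ratios across genes, which are not independent replicates, were -0.28 between pairs 1 and 2, 0.18 between pairs 1 and 3, and -0.08 between pairs 2 and 3.

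No member differed between the genotypes after correction for all genes tested. In limma on the 3 pair ratios, 0 of 22502 genes (0%) and 0 of 9 members had a Benjamini-Hochberg adjusted p under 0.05, and the adjusted p of each member was 0.999. Without adjustment, 647 genes had a p under 0.05, among them Cdkn1a and Myc, and the rank product called 9 genes and no member. The other comparison asked whether the pairs differed from each other by more than arrays A and B of a pair did, which compares these RNAs and not the genotypes. By limma's moderated F test it called 9 of 9 members beside 88.4% of all genes, a share so high that the count says nothing particular about the members. The adjusted p of this F test ran from 6.0e-10 for Cdkn2a to 3.2e-04 for Myc. Over the 9 members the median SD between pairs was 0.59 on the log2 scale, against 0.33 over all genes tested, and the median technical SD was 0.03 against 0.06. Median log2 ratios of the members were -0.05, 0.18 and -0.68 in pairs 1, 2 and 3, where those of all genes were 0.01, -0.01 and 0.00. Under median centering in place of loess those of the members were 0.18, -0.17 and -1.31. Both technical arrays had the same dye arrangement, so dye effects fall into the spread between pairs.

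**Figure D1:**
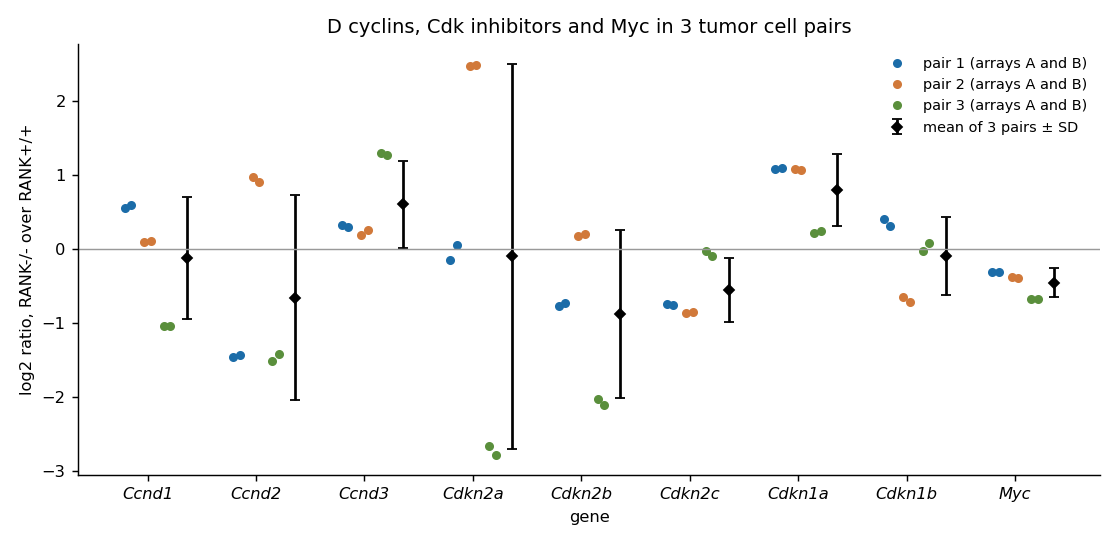
Log2 ratio of the channel labeled RANK-/- over the channel labeled RANK+/+ (y axis) for the 9 members tested (x axis). Dots are single arrays, colored by pair, and diamonds with bars are the mean ± SD of the 3 pair ratios. Arrays A and B nearly coincide, while Cdkn2a runs from -2.73 in pair 3 to 2.48 in pair 2 and Myc stays between -0.68 and -0.31.

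Ccnd1, the D cyclin most tied to mammary growth, showed no direction shared by the pairs. Its normalized log2 signal was 14.06, 13.94 and 13.02 in the RNAs labeled RANK-/- of pairs 1, 2 and 3, and 13.48, 13.85 and 14.06 in those labeled RANK+/+. The groups overlapped, each reached 14.06, and the lowest sample was the RNA labeled RANK-/- of pair 3. The log2 ratios were 0.57, 0.10 and -1.04, with a mean of -0.12 ± 0.83 (SD, n = 3; limma unadjusted p = 0.740). In pair 3 this was 2.06-fold lower and in pair 1 it was 1.49-fold higher. The mean changed sign to 0.33 without pair 3, and the pair 2 ratio was -0.35 under median centering in place of loess.

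Ccnd2, the D cyclin best known from lymphocytes and ovarian granulosa cells, varied most of the 3. Its log2 signals were 9.40, 9.63 and 9.02 in the RNAs labeled RANK-/- and 10.86, 8.69 and 10.49 in those labeled RANK+/+. The lowest and the 2 highest samples were all labeled RANK+/+, and the RNAs labeled RANK-/- lay between them. Log2 ratios were -1.45, 0.93 and -1.47, with a mean of -0.66 ± 1.38 (SD, n = 3; limma unadjusted p = 0.298). The mean was -0.27 without pair 1, -1.46 without pair 2 and -0.26 without pair 3.

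Ccnd3, the most widely expressed D cyclin, was higher in each RNA labeled RANK-/- than in its partner. Log2 signals were 13.23, 13.26 and 13.87 in the RNAs labeled RANK-/- and 12.93, 13.04 and 12.59 in those labeled RANK+/+, so the groups did not overlap. The log2 ratios were 0.31, 0.22 and 1.28, with a mean of 0.60 ± 0.59 (SD, n = 3; limma unadjusted p = 0.0823), and without pair 3 the mean was 0.26. Its second probe gave 0.20, 0.07 and 1.15, and there the groups overlapped. Under median centering the pair 2 ratio of the brighter probe was -0.17, so that the direction was no longer shared by all pairs. In pair 3 Ccnd1 was 2.06-fold lower while Ccnd3 was 2.42-fold higher in the same RNAs.

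Only Ccnd3 and Cdkn1a were higher in all pairs among the members, where 9.93% of all genes were, and only Cdkn2c and Myc were lower in all pairs, where 9.65% of all genes were. Under median centering no member was higher in all pairs and 3 were lower. The shares just given are those under loess and cannot be set beside these counts. The same 2 genes, Ccnd3 and Cdkn1a, had all values of RNAs labeled RANK-/- above all values of RNAs labeled RANK+/+, a pattern found in 3.66% of all genes. No member had all of them below, a pattern found in 3.82% of all genes. Shares of 2 in 9 rest on so few genes that they say nothing about the members as a set. Within single pairs, a 2-fold threshold gave the background for the swings. In pair 1, Cdkn1a was at least 2-fold higher (3.66% of all genes) and Ccnd2 at least 2-fold lower (2.84%). In pair 2, Cdkn1a and Cdkn2a were at least 2-fold higher (2.45%) and no member was at least 2-fold lower (2.37%). In pair 3, Ccnd3 was at least 2-fold higher (4.91%) and Ccnd1, Ccnd2, Cdkn2a and Cdkn2b were at least 2-fold lower (3.01%).

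**Figure D2:**
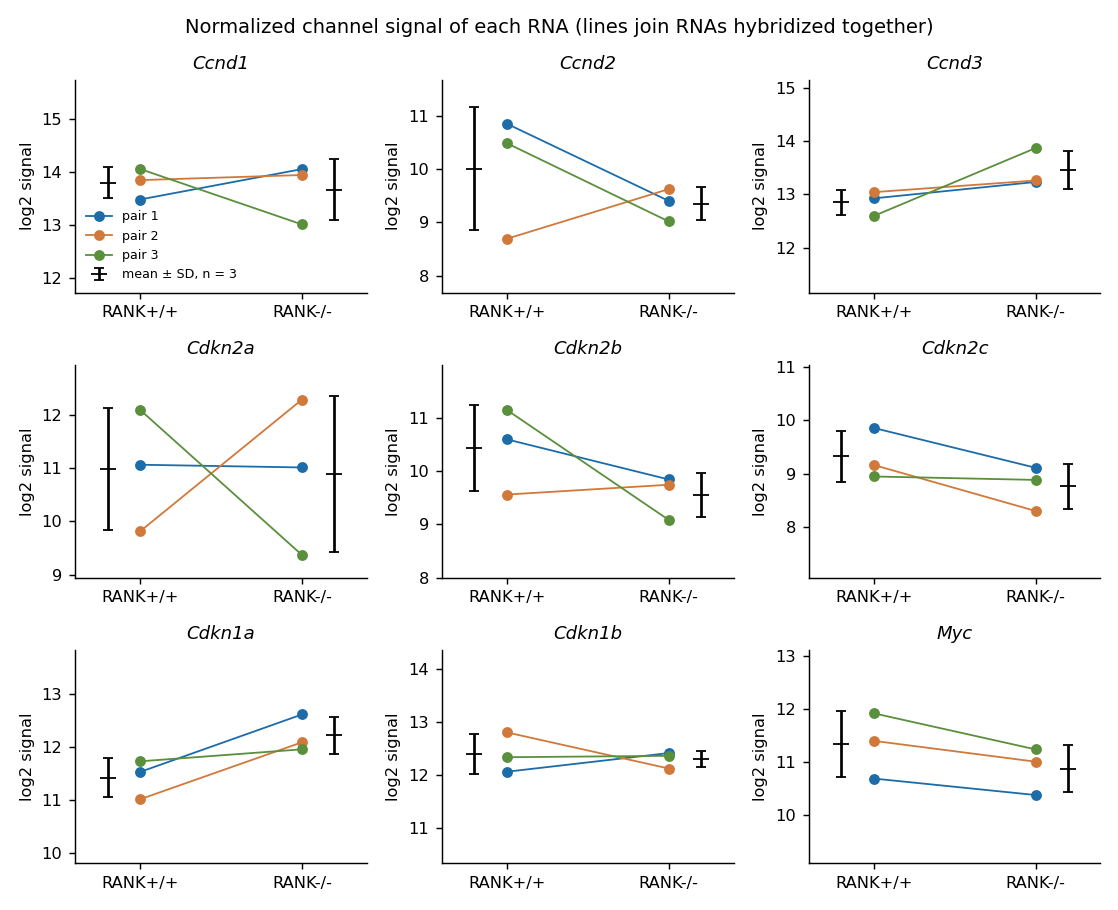
Normalized log2 channel signal (y axis, 4 log2 units in each panel) of the RNAs labeled RANK+/+ and RANK-/- for the 9 members tested. Lines join the RNAs hybridized together, and dashes with bars are the mean ± SD of 3 RNAs. The groups separate for Ccnd3 and Cdkn1a and overlap for the other 7 genes, and all 3 lines fall for Cdkn2c and Myc.

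Cdkn2a encodes both p16Ink4a, an inhibitor of Cdk4 and Cdk6, and p19Arf, which stabilizes p53 by binding Mdm2. These proteins start from first exons of their own, with Cdkn2b, the gene of p15Ink4b, as the neighbor on the same strand. The promoters are shown because Cdkn2a had the widest swing in the set and Cdkn2b is its neighbor. Both Cdkn2a starts are included because which of them the probes report was not checked. The 250 bases upstream of each start were taken from RefSeq (GRCm38.p6, minus strand), and capitals mark the E2F motif TTTCCCGC, searched on both strands together with TTTGGCGC. The stretches were chr4:89294620-89294869 for the p19Arf start, chr4:89282193-89282442 for the p16Ink4a start and chr4:89311033-89311282 for Cdkn2b.
Cdkn2a, p19Arf start: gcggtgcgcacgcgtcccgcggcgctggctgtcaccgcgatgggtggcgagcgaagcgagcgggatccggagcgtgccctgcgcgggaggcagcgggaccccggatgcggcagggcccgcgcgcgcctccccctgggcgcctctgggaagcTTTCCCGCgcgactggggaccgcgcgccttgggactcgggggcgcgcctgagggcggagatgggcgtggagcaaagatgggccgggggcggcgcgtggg
Cdkn2a, p16Ink4a start: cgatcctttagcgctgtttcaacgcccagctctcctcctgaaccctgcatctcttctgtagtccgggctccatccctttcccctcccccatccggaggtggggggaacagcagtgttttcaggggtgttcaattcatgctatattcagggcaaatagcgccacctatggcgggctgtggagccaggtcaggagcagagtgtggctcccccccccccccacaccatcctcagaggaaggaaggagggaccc
Cdkn2b: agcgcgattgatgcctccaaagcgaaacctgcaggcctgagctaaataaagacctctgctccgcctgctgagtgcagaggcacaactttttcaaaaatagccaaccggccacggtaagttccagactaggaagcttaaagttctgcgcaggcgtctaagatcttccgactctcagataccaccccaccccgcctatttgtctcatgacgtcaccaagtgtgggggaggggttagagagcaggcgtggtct
The p19Arf stretch holds TTTCCCGC once, beginning 99 bases before the start, and neither E2F motif occurs in the other 2 stretches. TTTCCCGC is found in 0.895% and TTTGGCGC in 0.417% of the 32851 promoters of the same length. The p19Arf stretch also holds the GC box GGGCGG, a motif of 32.7% of promoters, and 40 CG dinucleotides, against 7 for the p16Ink4a and 12 for the Cdkn2b stretch. A match of letters is a description and not evidence of binding.

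Cdkn2a had the widest range over the pairs of any member and ranked 24th of 22502 genes. Its log2 signal was 11.01, 12.29 and 9.37 in the RNAs labeled RANK-/- and 11.06, 9.81 and 12.10 in those labeled RANK+/+. High and low samples occurred in both groups, so the same genotype label held the top value in pair 2 and the bottom value in pair 3. The log2 ratios were -0.05, 2.48 and -2.73, which is 5.57-fold higher in pair 2 and 6.63-fold lower in pair 3, with arrays A and B on either side of 0 in pair 1. The mean was -0.10 ± 2.60 (SD, n = 3; limma unadjusted p = 0.927). The second Cdkn2a probe, which was dimmer (log2 signals of 6.67 to 8.32), gave -0.01, 1.55 and -1.32, the same order with smaller swings. Both probes carry the same accession, NM_009877, and where they lie in the gene was not checked. Whether they read p16Ink4a RNA, p19Arf RNA or both is therefore not known here. The mean depended on single pairs, being 1.21 without pair 3 and -1.39 without pair 2.

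Cdkn2b, next to it, had log2 signals of 9.84, 9.74 and 9.08 in the RNAs labeled RANK-/- and 10.60, 9.56 and 11.15 in those labeled RANK+/+. Its log2 ratios were -0.75, 0.18 and -2.07, with a mean of -0.88 ± 1.13 (SD, n = 3; limma unadjusted p = 0.126), which became -1.41 without pair 2 and -0.28 without pair 3. The second probe gave -0.63, 0.21 and -1.46. The groups overlapped through pair 2, where the ratio was -0.04 under median centering. In pair 3 both neighbors were lower, by 6.63-fold and 4.19-fold, and in pair 2 Cdkn2a was 5.57-fold higher while Cdkn2b was 1.14-fold higher.

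Cdkn2c, the gene of p18Ink4c, lies on the same chromosome but at another locus. Its log2 signals were 9.11, 8.30 and 8.88 in the RNAs labeled RANK-/- and 9.86, 9.16 and 8.95 in those labeled RANK+/+. It was lower in all pairs, with log2 ratios of -0.75, -0.87 and -0.06 and a mean of -0.56 ± 0.43 (SD, n = 3; limma unadjusted p = 0.0568). The groups overlapped because the highest RNA labeled RANK-/-, that of pair 1, lay above the RNA labeled RANK+/+ of pair 3. In pair 2, where Cdkn2a was at 2.48, Cdkn2c was at -0.87.

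**Figure D3:**
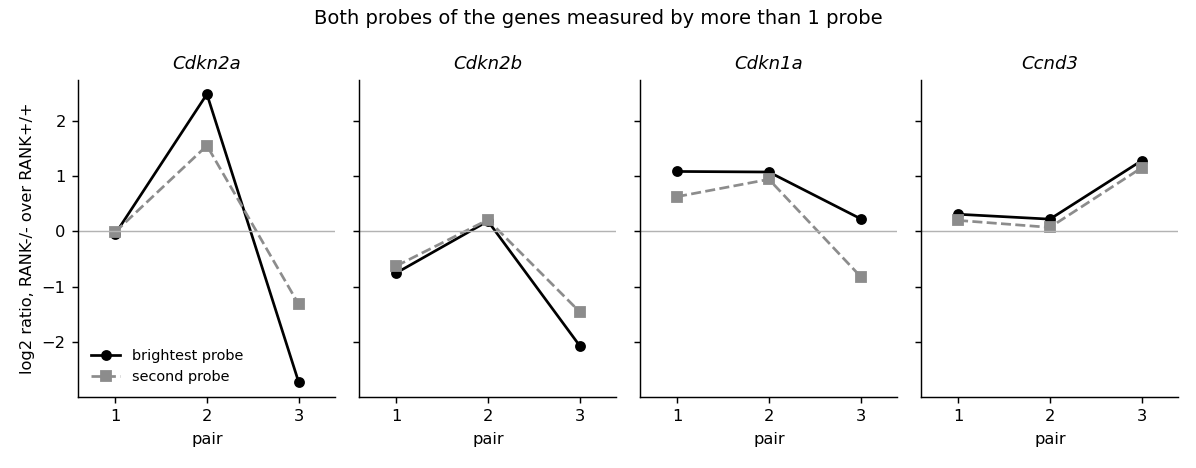
Log2 ratio of the channel labeled RANK-/- over the channel labeled RANK+/+ (y axis) in each pair (x axis) for the 4 members with a second probe. Lines follow the brightest probe (black, used in the tests) and the second probe (gray). Both probes have the same sign in every pair except Cdkn1a in pair 3, where they read 0.23 and -0.82.

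Cdkn1a, the gene of p21 and a classic p53 target, was higher in each RNA labeled RANK-/- than in its partner by its brighter probe, except in pair 3 under median centering. RefSeq lists 2 starts for it, and the stretch before the upstream start (GRCm38.p6, chr17:29090729-29090978, plus strand) is shown because its letters match the consensus of p53, the factor whose other targets are described below. Capitals mark 2 adjoining p53 half-sites, searched by consensus on both strands with at most 1 mismatch, a search set after the sequence was read.
Cdkn1a, upstream start: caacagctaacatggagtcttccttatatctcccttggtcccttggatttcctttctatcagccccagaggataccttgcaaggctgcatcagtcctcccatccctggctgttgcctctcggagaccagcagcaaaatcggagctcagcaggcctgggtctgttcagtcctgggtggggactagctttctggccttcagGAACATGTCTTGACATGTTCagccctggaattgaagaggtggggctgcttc
The element begins 51 bases before that start. Such a pair of half-sites is present in 25 of 32851 promoters of this length (0.0761%). It was not found before the downstream start or before any other member with a promoter in the table. The table held 11 stretches for 7 members and none for Ccnd1, Ccnd2 and Myc.

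The Cdkn1a probe was printed in 10 spots on each array, and the SD of its log2 ratio among the spots of an array was 0.03 to 0.09. Its log2 signals were 12.61, 12.09 and 11.96 in the RNAs labeled RANK-/- and 11.53, 11.02 and 11.73 in those labeled RANK+/+, with no overlap. The log2 ratios were 1.08, 1.07 and 0.23, or 2.12-fold, 2.10-fold and 1.17-fold higher. The mean was 0.79 ± 0.49 (SD, n = 3; limma unadjusted p = 0.0250, adjusted p = 0.999; rank product adjusted p = 0.532). The second probe, which carries the accession of another transcript (NM_001111099 instead of NM_007669), gave 0.63, 0.94 and -0.82, so the probes differed in sign in pair 3. This second probe was dimmer (log2 signals of 7.12 to 8.78) and was printed in 1 spot, but was well above background on all 6 arrays. With median centering the brighter probe was at -0.42 in pair 3. Cdkn1a was thus higher in pairs 1 and 2 by both probes, and by the brighter probe under each scaling, and its direction in pair 3 depended on the probe and the scaling.

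Cdkn1b, the gene of p27, which holds Cdk2 inactive in resting cells, had ratios of opposite sign in pairs 1 and 2. Its log2 signals were 12.42, 12.12 and 12.36 in the RNAs labeled RANK-/- and 12.06, 12.80 and 12.34 in those labeled RANK+/+, which overlapped. The log2 ratios were 0.35, -0.68 and 0.03, with a mean of -0.10 ± 0.53 (SD, n = 3; limma unadjusted p = 0.703). Its sign in pair 3 turned with several scalings, and its mean turned to 0.19 without pair 2.

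Myc was lower in each RNA labeled RANK-/- than in its partner, with the smallest spread of the members. Log2 signals were 10.38, 11.01 and 11.24 in the RNAs labeled RANK-/- and 10.69, 11.40 and 11.92 in those labeled RANK+/+. The signal differed more between pairs than within them, so the groups overlapped although each RNA labeled RANK-/- lay below its partner. The log2 ratios were -0.31, -0.39 and -0.68, or 1.24-fold, 1.31-fold and 1.60-fold lower. The mean was -0.46 ± 0.19 (SD, n = 3; limma unadjusted p = 0.0370, adjusted p = 0.999). It stayed below 0 in all pairs under each scaling run. Mycn, the Myc gene of embryonic and neural tissue, was not well above background on any array in either channel and has no ratio here.

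Of 105 listed genes of the pathway, 98 were tested and 0 passed limma's adjusted threshold, and 3 had an unadjusted p under 0.05 (the p53 targets Gadd45a and Plk2, and 1 Myc target). Genes of S phase and mitosis were lower in pairs 1 and 3 and higher in pair 2, the signs that Ccnd2 also had. The 14 mitosis genes tested had median log2 ratios of -0.85, 0.67 and -1.01 in turn. All 14 were below 0 in pairs 1 and 3, and all 14 were above 0 in pair 2, or 12 of them under median centering. Mki67, a proliferation marker, had ratios of -0.82, 0.75 and -0.97, and Top2a, a topoisomerase gene of dividing cells, had -0.77 in pair 1, 1.01 in pair 2 and a value close to that of Mki67 in pair 3. The mitotic checkpoint kinase gene Bub1 (-1.10, 1.50 and -1.54) and the mitotic kinase gene Aurka (-0.92, 1.22 and -1.36) had the widest ranges of that list. The 15 S phase genes had medians of -0.66, 0.59 and -0.91, led in range by the helicase subunits Mcm6 (-1.04, 1.25 and -1.17) and Mcm3 (-0.82, 1.27 and -1.15). Cdkn1a was more than 2-fold higher both in pair 1, where mitosis genes were lower, and in pair 2, where they were higher.

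Cyclin D partners moved less with the processing used. Cdk4 had log2 ratios of 0.26, -0.23 and -0.64, and Cdk6 of 0.03, -0.18 and -0.18. Cdk6 was well above background on only 3 of the 6 arrays for the RNAs labeled RANK-/-. The pair 2 median of these 2 genes was -0.21, but -0.43 with a normexp offset of 0. With the deposited processed intensities it was -0.81. The other Cdk inhibitor genes were Cdkn1c, the gene of p57 (-0.07, 0.78 and 0.45), and Cdkn2d, the gene of p19Ink4d (-0.36, -0.19 and -0.04). Among the 13 pocket protein and E2F genes the medians were -0.15, 0.02 and -0.22, and the first of these was 0.06 and the second -0.22 under median centering. E2f1, an activator of S phase genes and itself an E2F target, had one of the widest ranges (-0.64, 1.60 and -0.05), as did the pocket protein gene Rbl1 (-0.22, 1.46 and -0.73). E2f2 alone of this list was lower in all pairs (-0.17, -0.23 and -0.73). Of the 6 tested genes of cyclin E, cyclin A and Cdk2, Cks1b was higher in all pairs (0.34, 0.14 and 0.01). The last of these was below 0 in 5 of 6 scalings. Ccne1, the gene of cyclin E1, had ratios of -0.37, 0.60 and -0.99, and Ccna2, the gene of cyclin A2, of -0.31, 0.03 and -1.29. The 6 tested genes of the Polycomb group, which represses the Cdkn2a locus in many cells, had medians of -0.19, 0.22 and -0.28, of which the first was 0.03 and the second -0.06 under median centering. Suz12 was the 1 Polycomb gene lower in all pairs (-0.22, -0.07 and -0.26), which did not hold under median centering. Rnf2 (-0.01, 0.64 and -0.30) and Eed (-0.60, 0.32 and 0.15) had the widest ranges of the Polycomb list.

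**Figure D4:**
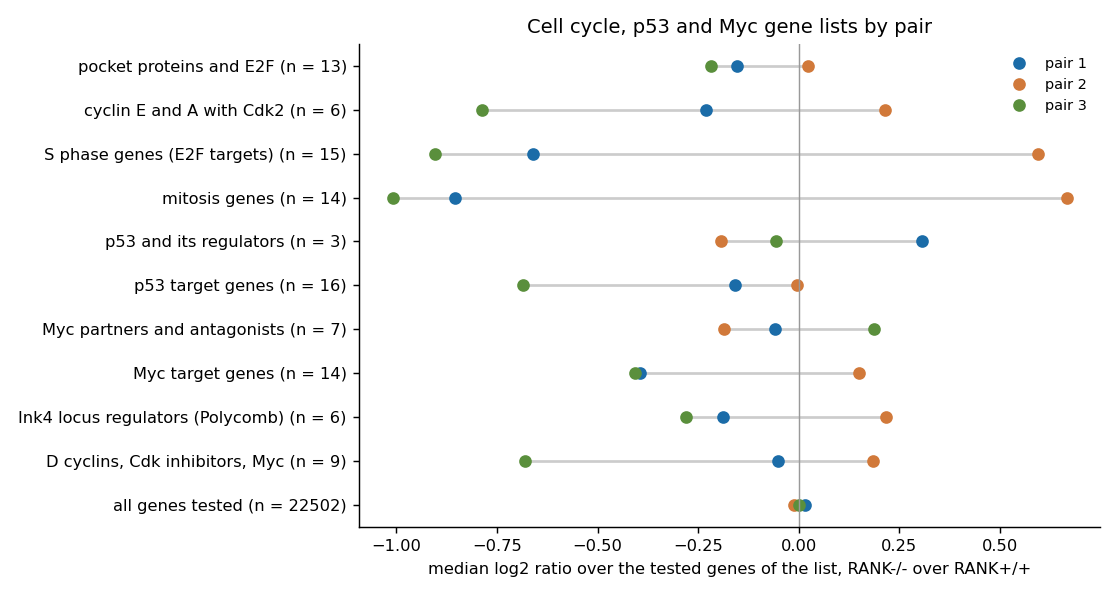
Median log2 ratio of the channel labeled RANK-/- over the channel labeled RANK+/+ (x axis) for lists of at least 3 tested genes (y axis, with the number tested), one dot for each pair. Mitosis genes lie at -0.85, 0.67 and -1.01 and S phase genes at -0.66, 0.59 and -0.91 in the order of the pairs, while all genes tested lie near 0.

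The other p53 target genes were mixed. Of 17 listed, 16 were tested, 0 were higher in all pairs and 4 were lower in all pairs, beside the 9.93% and 9.65% of all genes given above. By pair, 6, 8 and 4 of the 16 were above 0, where Cdkn1a was above 0 in all pairs. Counts this small do not set the list apart from all genes. The genes lower in all pairs were Gadd45a, a stress gene of the DNA damage response (-0.69, -0.36 and -1.20), the sestrin gene Sesn1 (-0.69, -0.08 and -0.75), Plk2, a polo-like kinase gene (-0.58, -0.23 and -0.70), and Bbc3, the gene of the BH3 protein PUMA (-0.08, -0.36 and -0.85). The widest ranges were those of Trp53inp1 (1.72, -0.87 and -0.67) and Phlda3 (-0.23, 1.46 and -1.11). Trp53 itself had ratios of 0.76, -0.43 and -0.74. Mdm4, an inhibitor of p53, had ratios of -0.10, 0.86 and 0.10, and Mdm2, the p53 ubiquitin ligase, 0.31, -0.19 and -0.06. The list medians were -0.16, 0.00 and -0.69, of which the first was 0.06 under median centering, and the count of genes higher in all pairs stayed at 0 under each scaling while 4 or 5 were lower in all pairs.

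**Figure D5:**
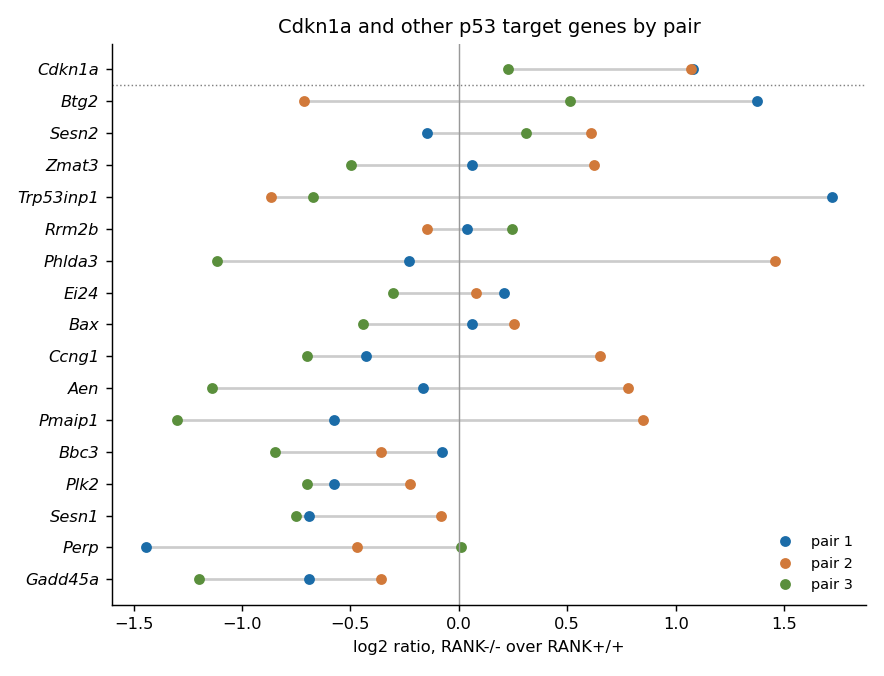
Log2 ratio of the channel labeled RANK-/- over the channel labeled RANK+/+ (x axis) of Cdkn1a and the 16 other p53 target genes tested (y axis, sorted by mean), one dot for each pair. Cdkn1a has all its dots above 0 (its pair 3 dot moves to -0.42 under median centering), 4 genes (Gadd45a, Sesn1, Plk2 and Bbc3) have all theirs below 0, and the others have dots on both sides.

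Myc targets and partners were mixed. The 14 Myc target genes had median log2 ratios of -0.39, 0.15 and -0.41, the second of which was -0.17 under median centering. Npm1, the gene of the nucleolar protein nucleophosmin (-0.70, -0.21 and -0.83), Shmt2, a gene of mitochondrial serine metabolism (-0.39, -0.05 and -0.61), and Cad, a gene of pyrimidine synthesis (-0.06, -0.15 and -0.10), were lower in all pairs, as Myc was. The widest ranges were those of Polr1b, a subunit gene of RNA polymerase I (-0.85, 1.06 and -1.05), and of Nop56 (-0.90, 1.06 and -0.51), which were higher in pair 2 where Myc was lower. Max was higher in all pairs (0.14, 0.23 and 0.62) except under median centering, and Mga, a gene of an alternative Max partner, was lower (-0.18, -0.19 and -0.65). The antagonists Mxd1 (-0.06, -0.76 and 1.07) and Mxd3 (-0.13, 0.68 and -1.12) had opposite signs in pairs 2 and 3.

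The genes with the most similar profiles were found for each tested member by the root mean square distance of the 3 pair ratios, over all genes with a RefSeq symbol. With only 3 points per profile this is a description of likeness in these RNAs. Hoxa7, a homeobox gene, lay nearest to Cdkn2a (0.07, 2.45 and -2.60; distance 0.10), followed by the transporter gene Slc47a1 at 0.32. Hmgn3 and Lix1l lay nearest to Ccnd1, Ptpru and Ydjc to Ccnd2, Mocos and Npff to Ccnd3, Abat and Atp12a to Cdkn2b, Lama3 and Mal2 to Cdkn2c, Cd177 and Olfr284 to Cdkn1a, Fibp and Slc26a11 to Cdkn1b, and H4c17 and Fdxacb1 to Myc. Among the members themselves, Cdkn2c and Myc were nearest (0.51), followed by Cdkn1b and Myc (0.58), Ccnd1 and Myc (0.62), and Ccnd2 and Cdkn2b (0.68).

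Cell type markers differed between the RNAs as well, and their part in the ratios of the members was not tested. The summed level of 7 fibroblast markers was 17.07 to 17.77 on the log2 scale in the RNAs labeled RANK-/- and 15.52 to 17.11 in those labeled RANK+/+, a difference of 0.17, 0.83 and 2.24 in turn. Of these markers 4, 6 and 7 had ratios above 0 in pairs 1, 2 and 3. Col1a1 had ratios of 0.68, 0.30 and 1.94, and Dcn of -0.71, 1.50 and 2.92. Luminal markers (6 of 6 tested) differed by 0.19, -1.18 and 1.46, with 3, 1 and 5 of them above 0. Krt8 had ratios of -0.41, -0.55 and 2.08, and Epcam of 1.04, -0.67 and 0.52. Krt8 lacked a usable value on some array, so not all its pair ratios average arrays A and B. Basal markers (6 of 6 tested) differed by -0.99, -0.24 and -0.31, with 3, 3 and 2 of them above 0. Krt14 had ratios of -1.81, 0.12 and -0.44, and Acta2 of 0.89, 0.02 and -0.01.

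Leukocyte markers (8 tested) ranged from 13.14 to 13.51 in the RNAs labeled RANK-/- and from 13.07 to 15.01 in those labeled RANK+/+, and differed by -1.50, -0.11 and 0.07. The pair 1 difference went with S100a8 (-3.99) and S100a9 (-4.12), genes of neutrophils. In the same pair Ptprc, the gene of CD45, was at -0.93, Lyz2 at -0.11 and Itgam at 0.49. S100a9 was well above background on 4 arrays for the RNAs labeled RANK-/- and on 6 for those labeled RANK+/+. Ptprc was so on 5 and 4 arrays. Endothelial markers (6 of 6 tested) differed by -0.01, -0.08 and 0.53, and Pecam1 had ratios of 0.02, -0.25 and 0.29. By summed level, both the fibroblast and the luminal differences were widest in pair 3. Under median centering the median ratios of the fibroblast markers were 0.35, 0.29 and 1.13. Those of the 5 luminal markers with values there were 0.51, -1.08 and -0.38, so pair 3 was no longer the widest. In pair 3 Ccnd1, Cdkn1a, Cdkn2a, Cdkn2b and Myc had their lowest ratios, and Ccnd3 and Cdkn2c their highest. Ccnd2 was about as low in pair 1 (-1.45) as in pair 3 (-1.47). Under median centering Ccnd3 and Cdkn2c were highest in pair 1 (0.56 and -0.55, against 0.51 and -0.57 in pair 3).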

How the data were processed

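RNA of sorted CD45- tumor cells was measured on 6 two-channel Agilent arrays (3 pairs of RNAs, arrays A and B for each). The authors scanned them and extracted spots with Feature Extraction 10.7.3.1, and the deposited tables give each spot's unnormalized median intensity and local background intensity in both channels. Deposited processed intensities and the authors' normalized log2 ratios were used only as alternatives. Set against the scanner ratios, with dyes inferred from the titles, the authors' ratios ran as RANK-/- over RANK+/+ (r = 0.971 to 0.983). Deposited log10 ratios were not used.

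With limma 3.58.1 in R 4.3.3, intensities were background-corrected (normexp, offset 50), control and outlier spots were removed, and intensity loess and Aquantile were applied, as in the study's methods but without their spatial loess, which was an alternative. Of the 62976 spots on each array, 59305 were gene spots, none was saturated, and 5 member spots over all arrays were outliers. The number of arrays limits the precision. Probes were kept if both arrays of 2 or more pairs called them well above background for one genotype (30231 of 55681), and the brightest kept probe stood for a gene. Symbols came from RefSeq (GRCm38.p6) by accession for 28026 probes. The files name the mm9 build, so only the promoter sequences carry RefSeq coordinates. Arrays A and B were averaged, and the 3 pair ratios were tested by limma without covariates, with Benjamini-Hochberg adjustment over 22502 genes. A moderated F test compared the pairs. With 3 pairs, an exact two-sided sign-flip test cannot go below p = 0.25. The scripts were tested on simulated data.

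Groups and pairs came from the sample titles, and dyes were inferred from the order of the genotypes in them. Read this way, the technical arrays of each pair did not swap dyes, although the study's methods describe dye swaps. Pathway and marker lists, and the members, were chosen with earlier results of these data known. The text names every member, Tnfrsf11a, Mki67, Top2a, Krt8, Krt14, Ptprc, Col1a1 and Pecam1 as markers and, in each pathway list, up to 3 genes with the largest mean among those of one sign in all pairs, up to 2 with the widest range over pairs, and the 2 genes nearest to each member; Mdm2, Bbc3, Acta2, Epcam, Dcn, Lyz2, Itgam, S100a8 and S100a9 were named after their values were seen. Alternatives changed the background correction, the normalization, the filter, the choice of probe, the replicates and the test.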

Additional observations from a re-analysis of the deposited data

How the results depend on the processing

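The count of genes that differed between the genotypes stayed at 0 in 17 of 20 alternatives (limma; 461 to 1877 genes with an unadjusted p under 0.05 when a pair was left out). It was 13 with pair as a random block over the 6 arrays (correlation 0.962), 298 with the 6 arrays as separate replicates, which counts each technical pair as independent, and 9 by rank product. No member was called in any of the 20, and the lowest adjusted p of a member was 0.0524, for Myc with 6 separate arrays, within a range of 0.0524 to 1.00 over its alternatives. The ratios are paired by the array; with no replicate block, as 3 against 3 channel signals, 0 genes were called and 830 had an unadjusted p under 0.05. Samples with the same number showed no positive correlation of their deviations (-0.03, -0.22 and -0.04). With 3 RNAs per genotype, this cannot tell whether they shared more than an array. Members that differed between pairs ranged from 5 (without pair 3) to 9 with a pair left out, and genes that did so from 16048 to 16878. Leaving out a pair, the mean log2 ratio ranged from -0.47 to 0.33 for Ccnd1 (0.33 without pair 3), from -0.33 to 0.19 for Cdkn1b (0.19 without pair 2) and from -1.39 to 1.21 for Cdkn2a (1.21 without pair 3), changing sign in each. A dye term, which sets pair 1 against the others, turned Ccnd1 to 0.0495 and Cdkn1b to 0.0123. The means of the other 6 members kept their sign in all 19 alternatives that gave one. Median centering in place of loess moved the median of all genes by -0.14 and, among the members, the mean of Ccnd1 to -0.46, of Cdkn1b to -0.36, of Cdkn2a to -0.31, of Cdkn1a to 0.56 and of Ccnd3 to 0.30. With the mean over the probes of a gene, Cdkn1a was at 0.52 and Ccnd3 at 0.54. The cause of these changes was not tested. The F test could not be run on single arrays of a pair, with the block or dye terms, or by rank product.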
